A study of Homo sapiens with 4 samples.

Results

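The clustered histone genes of HCT116 cells, an established human colorectal carcinoma line, were followed through heavy and light polysomes. The members are the 73 rows of the count table whose symbol begins with HIST1H, HIST2H, HIST3H or HIST4H, out of 26364 rows. Polysomes, mRNAs bound by several ribosomes at once, are sorted by size on a sucrose gradient. The groups were heavy polysomes (10 or more ribosomes) and light polysomes (9 or fewer) of cells labelled as a Dicer1 knockout, and the same fractions of wild type cells, with 1 library each. DICER1 is the enzyme that cuts microRNA precursors. The labels state neither how the gene was altered nor whether the altered line is a single clone, and all groups share the HCT116 background.

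Histones are the proteins around which DNA is wound. H2A, H2B, H3 and H4 form the nucleosome core and H1 binds the linker DNA between cores. Most of their genes lie in clusters, lack introns and are transcribed in S phase, when new chromatin is assembled. Their mRNAs are unusual in ending in a short stem-loop in place of a poly(A) tail. The stem-loop-binding protein SLBP holds this structure during 3′ end processing and translation, and the mRNAs are degraded when DNA synthesis stops. A few members, such as HIST1H2BK, HIST1H2BD, HIST1H1C and HIST2H2BE, are known to give polyadenylated transcripts too. Whether poly(A) RNA was selected for these libraries is not given in the sources used here.

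The stem-loop is the sequence that sets these mRNAs apart, so it is shown for the 5 members with enough counts to compare and for 2 others with a different stem or loop. Capitals mark the 6-base stem, which pairs with itself around a 4-base loop in lower case, and up to 5 flanking bases are given on each side. The sequences were read 5′ to 3′ from GENCODE 44 transcripts.
HIST1H1C: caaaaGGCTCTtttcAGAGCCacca
HIST1H1E: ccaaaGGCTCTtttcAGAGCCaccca
HIST1H2BD: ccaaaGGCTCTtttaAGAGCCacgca
HIST1H2BK: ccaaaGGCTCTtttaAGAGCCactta
HIST3H2A: ataaaGGCTCTtttcAGAGCCaccta
HIST2H2AC: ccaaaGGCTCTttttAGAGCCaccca
HIST1H4E: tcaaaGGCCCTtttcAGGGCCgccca

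A perfect stem of this form, GGNNNNTTNNNNNNCC with 6 paired bases, was found anywhere in the sense strand of 65 of the 70 protein-coding members. No match in the other 5 says only that these letters are not in their annotated transcripts. Over all 19676 protein-coding genes of GENCODE, 0.381% held the pattern in the last 150 bases of a transcript, a narrower search in which 64 members matched. Among the matched members the stem followed the histone class. The matched H1, H2A, H2B and H3 genes (6, 15, 17 and 13 of them) had the stem GGCTCT, and the 14 matched H4 genes had GGCCCT. The loop TTTC was found in 40 genes with the first stem and in 10 H4 genes.

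The libraries held 19238492 counts for labelled knockout heavy, 17457116 for labelled knockout light, 20933675 for wild type heavy and 19727010 for wild type light polysomes. A count of 0 therefore allows up to 0.143 to 0.172 CPM (counts per 1000000 counts of the library), taking 3 counts as the limit. Intervals and floors cover counting error only. DICER1 had 925 and 889 counts in heavy and light polysomes of the labelled knockout, against 500 and 547 in those of the wild type. The gene-level count therefore does not show a loss, and directions between the genotypes rest on the labels. Of 14 marker genes of other cell types, 13 had under 20 counts in every library. The exception, COL1A1, had 911 and 304 counts in heavy and light polysomes of the labelled knockout, against 468 and 206 in those of the wild type. The epithelial gene EPCAM had 12586 to 17555.

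Counts of clustered histone genes were low in every library. Whether poly(A) RNA was selected and how reads that fit several places were treated are not known. Low counts therefore need not mean scarce mRNA. The 73 rows together took 725 counts in heavy and 2288 in light polysomes of the labelled knockout, against 1622 in heavy and 3987 in light polysomes of the wild type. In CPM these sums are 37.7 (exact 95% interval 35.0 to 40.5), 131 (126 to 137), 77.5 (73.8 to 81.3) and 202 (196 to 208). A single histone gene outside the clusters, H3F3B, which encodes the replacement histone H3.3 and makes polyadenylated mRNA, had 18191, 35826, 23414 and 53165 counts in the same order of libraries.

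Few members carried enough counts to compare. No library held a count for 22 members, and 41 had fewer than 10 counts in each library. The fit across all genes took in 22 members, and 5 had at least 50 counts in each library: HIST1H1C, HIST1H1E, HIST1H2BD, HIST1H2BK and HIST3H2A. HIST1H1C alone held 2727 of the counts and HIST1H2BK 1875.

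Some of the members at 0 have near-identical copies. HIST2H2AA3 and HIST2H2AA4, HIST2H3A and HIST2H3C, and HIST2H4A and HIST2H4B share at least 97.5% of the 50-base windows of their transcripts with another gene, and all of them were listed at 0. How reads that fit several places were treated is not given in the sources used here. H3F3A, the other H3.3 gene, which is widely expressed, was also listed at 0 in each library, so a 0 in this table need not mean a silent gene. Yet 12 of the 22 members at 0 share no window with another gene. Among them is HIST1H1B, the gene of linker histone H1.5. Others at 0 were HIST1H2AE, HIST1H2AL, HIST1H2BG, HIST1H2BI, HIST1H3C, HIST1H3F, HIST1H3G, HIST1H3I, HIST1H4F, HIST1H4G and HIST1H4L. The pseudogene HIST1H2APS1, HIST2H2BA, which GENCODE types as a long noncoding RNA, and the testis genes HIST1H2AA and HIST1H2BA complete them. The testis genes HIST1H1T and HIST3H3 had 3 and 1 counts over the 4 libraries together.

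Of the 5 comparable members, HIST1H2BK and HIST1H1C were the most abundant per length. Their mean scaled levels were 47.3 and 46.4 CPM per kilobase of the shortest GENCODE transcript. HIST1H2BD followed at 25.2, HIST3H2A at 14.5 and HIST1H1E at 9.16. Over the longest transcript HIST1H2BD stood at 15.5 and HIST3H2A at 4.59, below HIST1H1E, which gives 9.16 on either length. The order of the first pair turned with the library: HIST1H1C stood at 12.6 CPM per kilobase in labelled knockout heavy polysomes, where HIST1H2BK stood at 18.1, and at 49.9 in wild type heavy polysomes, where HIST1H2BK stood at 31.0. H1F0, the replacement linker histone of slowly dividing cells, averaged 597 CPM per kilobase on the same scale.

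**Figure D1:**
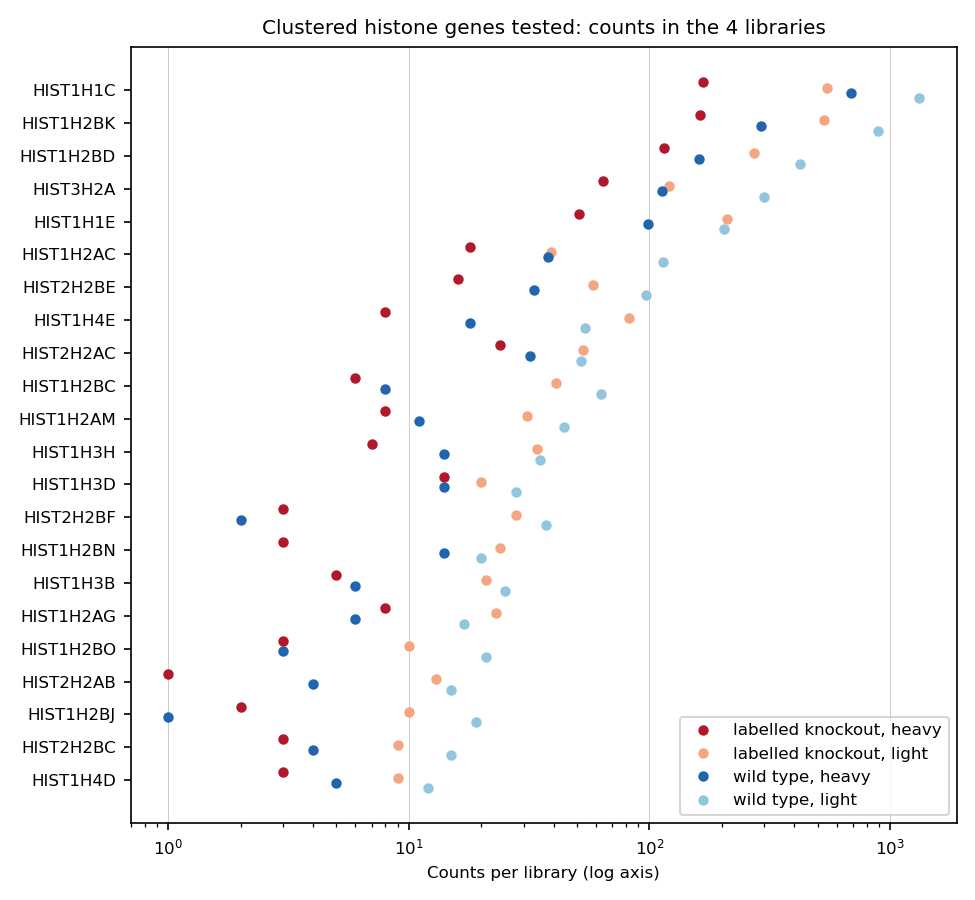
Counts of the 22 tested clustered histone genes (rows, ordered by mean CPM) in the 4 libraries (points, 1 library each) on a log axis. The top 5 genes exceed 50 counts in each library, and for each of the 22 the light library lies to the right of the heavy library of its own gradient.

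H2B and H1 genes supplied most of the signal. The 20 H2B rows summed to 318 and 1005 counts in heavy and light polysomes of the labelled knockout, and to 527 and 1617 in those of the wild type. The 6 H1 rows summed to 218 and 758 counts in heavy and light polysomes of the labelled knockout and to 791 and 1531 in those of the wild type. The 18 H2A rows gave 133, 311, 219 and 596 counts in labelled knockout heavy and light and wild type heavy and light polysomes. H3 and H4, which form the centre of the nucleosome, were the least counted. The 14 H3 rows gave 37, 91, 44 and 131 counts and the 15 H4 rows 19, 123, 41 and 112 in that order. Every class had a lower CPM sum in the heavy than in the light library of each gradient.

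**Figure D2:**
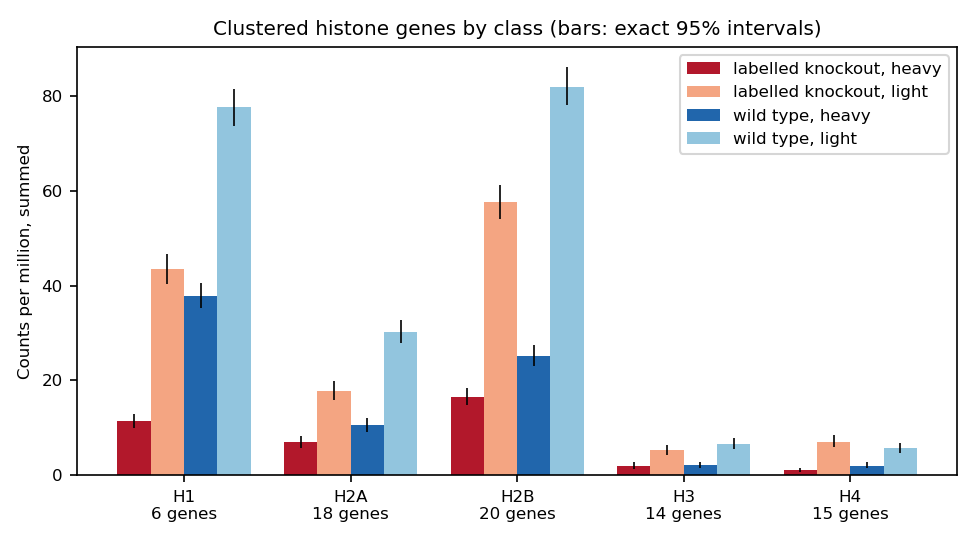
Summed CPM of the clustered histone genes by class (bars, 1 library each) with exact 95% intervals that cover counting error. The H1 and H2B sums are the tallest in each library, and H2B stands above H1 except in wild type heavy polysomes (25.2 for H2B and 37.8 for H1).

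The first comparison asked whether clustered histone mRNAs sit in heavy or in light polysomes. Their share of counts was higher in light polysomes in both gradients. Of the 22 members tested, edgeR's quasi-likelihood test (gradient as a block, Benjamini-Hochberg adjusted p under 0.05) called 19 toward light polysomes. Over all 13574 genes tested, 29.3% were called toward light and 30.0% toward heavy polysomes. No member was called toward heavy polysomes by edgeR or by DESeq2, and 0 had an unadjusted p under 0.05 in that direction. The median fitted log2 heavy to light ratio was -1.54 over the 22 members and -0.07 over all genes. With a single residual degree of freedom, the p-values rest mainly on the disagreement between the genotypes' gradients pooled over genes. That disagreement may be technical as well as biological. The p-values say little of how far a gene's own gradients differ. HIST1H1C, at -1.67 in the labelled knockout and -0.72 in the wild type, had a standard error (SE) of 0.26. HIST1H2BD, at -1.21 and -1.18, had an SE of 0.27. Without the gradient as a block 12 members were called toward light polysomes, and the share over all genes was 16.1% toward light and 21.0% toward heavy polysomes.

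The filter on low counts favours this direction: 9 of the 22 members reached its level of 0.513 CPM in light libraries alone, and 9 in both heavy libraries. The count, median and calls over tested members are therefore a description. The 51 members left out of the fit summed to 34 counts in heavy and 101 in light polysomes of the labelled knockout, and to 57 in heavy and 176 in light polysomes of the wild type. Their log2 heavy to light ratios were -1.496 (counting interval -2.04 to -0.95) in the labelled knockout and -1.38 (-1.80 to -0.95) in the wild type. Of the 51 members with any count, 37 had the higher scaled level in light polysomes in both gradients and 0 had it in heavy polysomes in both. Over all genes tested, which passed the filter and are of every coding length, 45.1% were higher in light polysomes in both gradients. The share higher in heavy polysomes in both was not taken over all genes.

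HIST1H2BK, an H2B gene at chromosome 6, 27146361 to 27146855 on the minus strand of GRCh38, had 162 counts in heavy and 532 in light polysomes of the labelled knockout. In the wild type it had 290 in heavy and 891 in light polysomes. The light library was the higher one in each gradient, with log2 ratios of -1.68 in the labelled knockout and -1.39 in the wild type. Its fitted log2 ratio was -1.54 (SE 0.26, edgeR adjusted p = 5.05e-08). Of its 50-base windows, 57.2% also occur in another GENCODE gene, overlapping genes included, so its level is uncertain.

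HIST1H2BD, another H2B gene, at chromosome 6, 26158122 to 26171349 on the plus strand, had 115 and 273 counts in heavy and light polysomes of the labelled knockout, and 160 and 424 in those of the wild type. The log2 ratio was -1.21 in the labelled knockout (counting interval -1.52 to -0.90) and -1.18 in the wild type (-1.44 to -0.92). These are the closest values of the 5 comparable genes. The fitted ratio was -1.20 (SE 0.27, edgeR adjusted p = 3.22e-05).

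HIST3H2A, an H2A gene of the small cluster on the long arm of chromosome 1 (228434777 to 228457873, minus strand), had 64 and 121 counts in heavy and light polysomes of the labelled knockout. In the wild type it had 113 and 298. It leaned to light polysomes slightly more in the wild type (-1.17, counting interval -1.48 to -0.86) than in the labelled knockout (-0.88, -1.31 to -0.45), and these intervals overlap. The fitted ratio was -1.05 (SE 0.29, edgeR adjusted p = 0.000715), and without the gradient as a block it was not called (adjusted p = 0.0811).

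HIST1H1C, the gene of linker histone H1.2 at chromosome 6, 26055740 to 26056470 on the minus strand, had 167 counts in heavy and 545 in light polysomes of the labelled knockout. In the wild type it had 690 in heavy and 1325 in light polysomes. The lean to light polysomes was the larger one in the labelled knockout, at -1.67 (counting interval -1.92 to -1.42), against -0.72 (-0.85 to -0.59) in the wild type. The fitted ratio was -1.18 (SE 0.26, edgeR adjusted p = 3.86e-05). It was not called without the gradient as a block (adjusted p = 0.188).

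HIST1H1E, the gene of linker histone H1.4 at chromosome 6, 26156329 to 26157115 on the plus strand, had 51 and 211 counts in heavy and light polysomes of the labelled knockout, and 99 and 205 in those of the wild type. It followed HIST1H1C, with -1.99 (counting interval -2.42 to -1.55) in the labelled knockout and -0.82 (-1.16 to -0.48) in the wild type. The fitted ratio was -1.39 (SE 0.29, edgeR adjusted p = 8.80e-06).

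The 17 other tested members are known less precisely. Their fitted ratios ran from -3.51 to -0.64. The lowest were all H2B genes: HIST2H2BF, with 3 and 28 counts in heavy and light polysomes of the labelled knockout and 2 and 37 in those of the wild type (-3.51, SE 0.61, edgeR adjusted p = 8.54e-08), HIST1H2BJ (-3.02, SE 0.77, adjusted p = 0.000323) and HIST1H2BC (-2.73, SE 0.47, adjusted p = 8.01e-08). These H2B genes reached the filter level in light libraries alone, so their place in the order is a description. In the single gradients HIST1H2BJ stood at -1.57 in the labelled knockout and -2.67 in the wild type. HIST2H2BF stood at -2.57 in the labelled knockout and -3.13 in the wild type. Ratios of single gradients, here and elsewhere, add a prior count of 2 that the fitted ratios lack. At low counts it draws them toward no difference, so both gradients can show a smaller lean than the fit. The members not called were HIST1H3D (-0.64, adjusted p = 0.222), HIST2H2AC (-0.79, adjusted p = 0.0565) and HIST1H4D (-1.24, adjusted p = 0.0982). With library totals alone as the scaling HIST2H2AC was called (adjusted p = 0.0204).

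HIST1H4E was the best counted H4 gene, at 8 counts in the heavy and 82 in the light polysomes of the labelled knockout and 18 and 54 in those of the wild type (fitted -2.24, SE 0.41, edgeR adjusted p = 3.77e-07). For H3 it was HIST1H3H, with 7 and 34 in the labelled knockout and 14 and 35 in the wild type (-1.60, adjusted p = 0.00146). In the single gradients HIST1H4E stood at -3.05 in the labelled knockout and -1.28 in the wild type, and HIST1H3H at -1.98 in the labelled knockout and -1.01 in the wild type. HIST1H3B stood at -1.92 and HIST1H2AM at -1.84. The other called members lay between -2.31 for HIST2H2AB and -1.25 for HIST1H2AC, and they were HIST1H2BO, HIST2H2BC, HIST2H2BE, HIST1H2AG and HIST1H2BN. In the single gradients HIST2H2AB stood at -2.31 in the labelled knockout and -1.33 in the wild type, and HIST1H2BO at -1.25 in the labelled knockout and -2.04 in the wild type. HIST2H2BC is a transcribed pseudogene whose windows all occur in another gene. HIST1H2BN stood at -2.36 in the labelled knockout and at -0.26 (counting interval -1.19 to 0.67) in the wild type. Without the gradient as a block, adjusted p-values of 0.102 for HIST1H2AC, 0.0982 for HIST1H2AG, 0.18 for HIST1H2BN, 0.0507 for HIST1H3H and 0.0937 for HIST2H2BC missed the threshold.

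**Figure D3:**
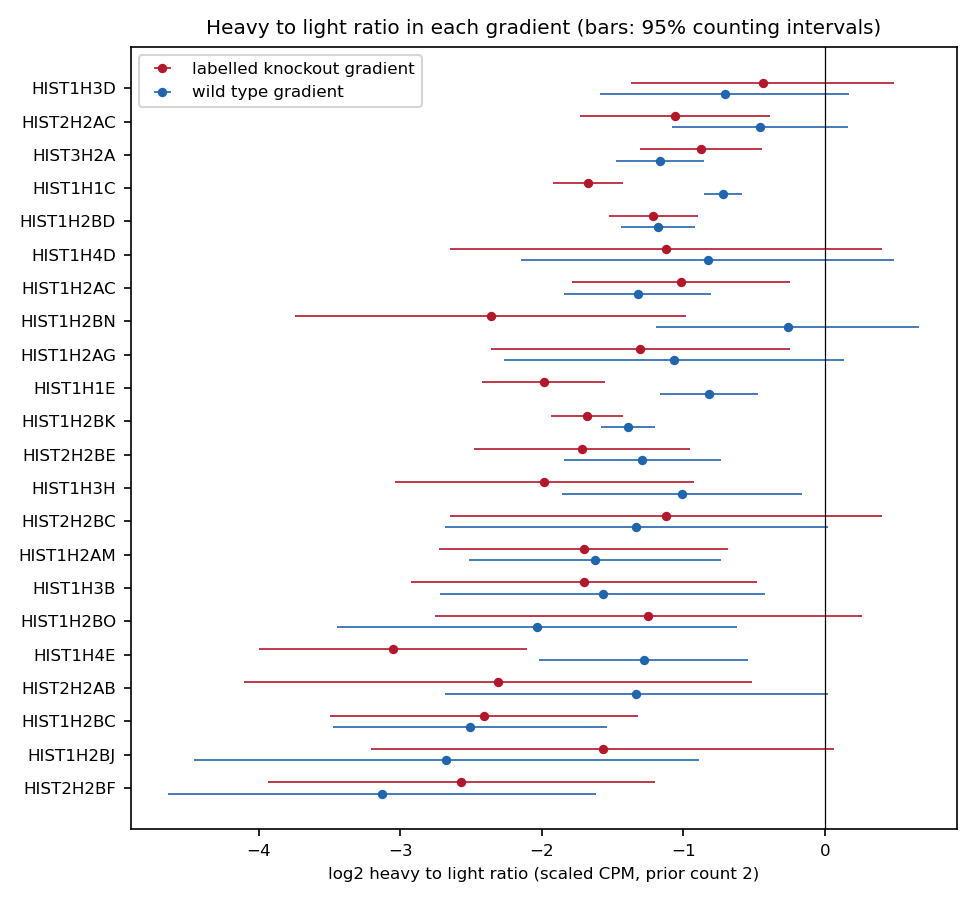
Log2 heavy to light ratios of the 22 tested clustered histone genes in the labelled knockout gradient and in the wild type gradient (points, 1 pair of libraries each) with 95% counting intervals. All points lie below 0, and the intervals of the gradients do not overlap for HIST1H1C, HIST1H1E and HIST1H4E, with the labelled knockout further toward light polysomes.

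Histone coding sequences are short, and a short coding sequence has room for few ribosomes. The tested H2A, H2B, H3 and H4 genes of 300 to 450 coding bases were therefore set beside other genes of that length. HIST1H2BN, with 498 coding bases in GENCODE, and the pseudogene HIST2H2BC were outside this class. Of 484 such genes, 89.3% were called toward light polysomes, with a median fitted ratio of -1.21 and a range from -1.71 to -0.71 between the 10th and 90th percentiles. The 18 members of this length had a median of -1.57. Of all 22 tested members 19 were called toward light polysomes. Those not called, HIST1H3D, HIST2H2AC and HIST1H4D, all belong to the 18, whose called share was therefore below the 89.3% of the other genes. The median of -1.57 is a description, because 9 of the 22 reached the filter level in light libraries alone. The comparable core genes stood on both sides of the class median, with HIST3H2A at -1.05, HIST1H2BD at -1.20 and HIST1H2BK at -1.54. The H1 coding sequences are longer. Among 609 other genes of 600 to 700 coding bases the median was -0.62 and the 10th percentile -1.32, while HIST1H1C stood at -1.18 and HIST1H1E at -1.39. In the labelled knockout the median of that length class was -0.66 and in the wild type -0.62, so both H1 genes lay near their class in the wild type and far below it in the labelled knockout. No test was made of these differences.

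**Figure D4:**
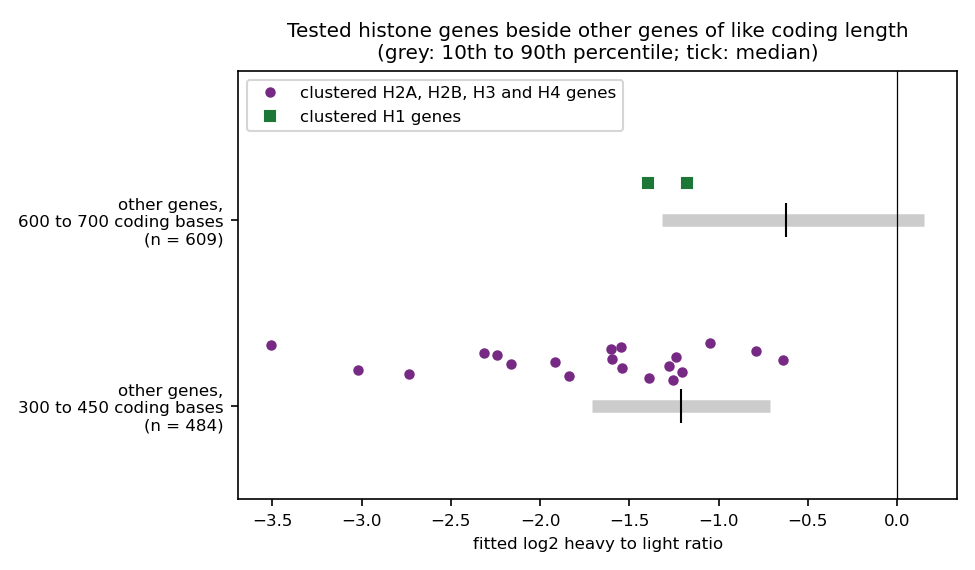
Fitted log2 heavy to light ratios of the tested clustered histone genes (points) above the 10th to 90th percentile range (grey bar) and median (tick) of other genes with 600 to 700 and with 300 to 450 coding bases. The 2 H1 genes lie below the median of their length class (-0.62). The H2A, H2B, H3 and H4 genes spread around and below the median of the 300 to 450 class (-1.21). HIST1H2BN (498 coding bases) and the pseudogene HIST2H2BC are drawn with them though outside that class.

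Of the 6 members listed as also giving polyadenylated transcripts, HIST4H4 was not tested and the other 5 were called toward light polysomes, with a median of -1.25. Histone genes outside the clusters give the comparison with polyadenylated histone mRNA. Of 12 such genes, 11 were tested, 7 were called toward light polysomes and 4 were not called, with a median fitted ratio of -0.75. CENPA, the histone of centromeres, stood at -1.84, the variant genes H2AFZ at -1.43 and H2AFV at -1.18, and H3F3B at -0.96. H2AFX, the histone phosphorylated at DNA breaks, stood at -0.71 (edgeR adjusted p = 0.0322). The transcripts of H2AFX also hold a stem-loop, 821 bases or more before their annotated end, and its stem is that of the H4 members. The longer mRNA of the macro-histone H2AFY (-0.13, adjusted p = 0.738), H1F0 (-0.54, adjusted p = 0.143) and H1FX (-0.36, adjusted p = 0.318) were not called.

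Next, the genotypes were compared in heavy and in light polysomes. There was 1 library on each side, so no difference has a replicate check and no p-value is given. The counts of clustered histone genes were lower in the labelled knockout. For the sum over all 73 rows, the log2 ratio (labelled knockout over wild type) was -1.10, with a counting interval of -1.22 to -0.97, in heavy polysomes. In light polysomes it was -0.54 (-0.61 to -0.47). Without HIST1H1C these were -0.67 (-0.83 to -0.52) and -0.35 (-0.44 to -0.26). In polysome RNA from many cells, fewer cells in S phase, less histone mRNA per cell and other causes cannot be told apart.

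HIST1H1C had the lowest ratio in heavy polysomes. Its log2 ratio was -1.97 (counting interval -2.21 to -1.73) for heavy and -1.02 (-1.16 to -0.87) for light polysomes. HIST3H2A was lower in both fractions and level with HIST1H1C in light polysomes, at -0.74 (-1.18 to -0.30) in heavy and -1.03 (-1.33 to -0.73) in light polysomes. HIST1H2BK stood at -0.77 (-1.05 to -0.49) in heavy and -0.48 (-0.64 to -0.33) in light polysomes. For HIST1H2BD the values were -0.41 (-0.75 to -0.06) in heavy and -0.37 (-0.59 to -0.15) in light polysomes. HIST1H1E was lower in heavy polysomes (-0.87, -1.35 to -0.39) and slightly higher in light ones (0.30, 0.02 to 0.58).

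Of the 5 comparable members, 1 was at least 2-fold lower in heavy polysomes and 2 in light polysomes, and 0 were 2-fold higher in either. Over the 10834 genes that reached 50 counts in every library, 2.03% were 2-fold lower and 2.72% higher in heavy polysomes, and 2.19% lower and 3.64% higher in light polysomes. Both genes past the line in light polysomes, HIST1H1C and HIST3H2A, lay just beyond it, and with RLE scaling 0 of the 5 members passed. The median log2 ratios of the 5 members were -0.77 in heavy and -0.48 in light polysomes, beside -0.03 and 0.02 over all genes. The 68 other members summed to a ratio of -0.63 (counting interval -0.91 to -0.35) in heavy and -0.22 (-0.37 to -0.07) in light polysomes.

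Summed linker histone counts were lower in the labelled knockout, within the clusters and for H1F0 and H1FX. The H1 rows gave -1.79 (counting interval -2.002 to -1.57) for heavy and -0.75 (-0.88 to -0.63) for light polysomes, which rests on HIST1H1C: without it the sums were -0.90 (-1.37 to -0.42) and 0.31 (0.03 to 0.58). H1F0 had 11062 and 16836 counts in heavy and light polysomes of the labelled knockout, against 29352 and 48087 in those of the wild type. Its log2 ratios were -1.34 in heavy and -1.25 in light polysomes. H1FX had 5492 and 7186 counts in the labelled knockout, against 11222 and 16684 in the wild type, at -0.97 in heavy and -0.95 in light polysomes. For the core histones in heavy polysomes the sums were -0.65 (-0.96 to -0.34) for H2A, -0.66 (-0.86 to -0.46) for H2B, -0.97 (-1.73 to -0.22) for H4 and -0.18 (-0.79 to 0.44) for H3. In light polysomes they were -0.67 (-0.87 to -0.48) for H2A, -0.42 (-0.54 to -0.31) for H2B, 0.39 (0.02 to 0.76) for H4 and -0.26 (-0.64 to 0.12) for H3.

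**Figure D5:**
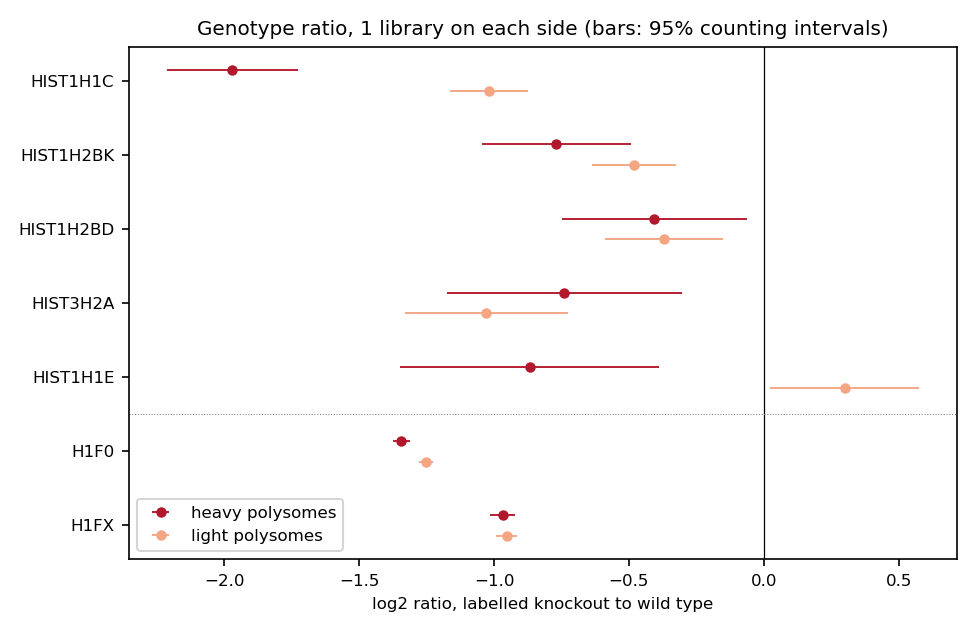
Log2 ratios (labelled knockout over wild type) in heavy and in light polysomes (points, 1 library on each side) with 95% counting intervals for the 5 comparable clustered histone genes and, below the dotted line, for the linker histone genes H1F0 and H1FX. All ratios lie below 0 but that of HIST1H1E in light polysomes (0.30), and HIST1H1C in heavy polysomes is the lowest at -1.97.

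The difference between the gradients' log2 ratios (labelled knockout minus wild type, called the shift here) was most negative for the H1 genes among the comparable members. It was -1.17 for HIST1H1E (counting interval -1.72 to -0.61) and -0.95 for HIST1H1C (-1.23 to -0.67). For HIST1H2BK it was -0.29 (-0.60 to 0.03), for HIST1H2BD -0.03 (-0.44 to 0.37) and for HIST3H2A 0.29 (-0.24 to 0.82). HIST1H1E alone passed 2-fold toward light polysomes with an interval that excluded 0, as did 2.38% of all comparable genes, and HIST1H1C lay just short of 2-fold. The median shift was -0.29 over the 5 members, -0.05 over all genes and -0.09 over other genes of 600 to 700 coding bases. Outside the clusters H1F0 had a shift of -0.09 and H1FX of -0.01. HIST1H4E, below the count limit, had a shift of -1.77 (-2.97 to -0.57), and the other 14 H4 rows summed to -0.65 (-1.77 to 0.47). The H2B gene HIST1H2BN, also below that limit, had a shift of -2.10 (-3.76 to -0.43). It had 3 and 24 counts in heavy and light polysomes of the labelled knockout and 14 and 20 in those of the wild type.

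Factors that make and use histone mRNA were measured well. Of 25 such genes, 11 leaned to heavy and 5 to light polysomes past the threshold, 9 were not called, and the median was 0.10. SLBP itself was not called (-0.21, edgeR adjusted p = 0.552). Its mRNA had 4001 and 5604 counts in heavy and light polysomes of the labelled knockout, against 5779 and 6559 in those of the wild type. The log2 ratio to wild type was -0.47 (counting interval -0.52 to -0.41) in heavy and 0.03 (-0.02 to 0.09) in light polysomes. NPAT, the cyclin E-dependent activator of histone transcription, was called toward heavy polysomes (0.64, adjusted p = 0.0226).

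Of the cleavage machinery, the endonuclease CPSF3 (1.82), the scaffold SYMPK (2.31) and the RNA-binding subunit CSTF2 (2.47) were called toward heavy polysomes. So was UPF1, a helicase that takes part in histone mRNA decay, at 2.63. Small proteins of the Sm-like rings were called toward light polysomes, with LSM10 of the U7 particle at -1.30, LSM1 at -1.32 and LSM4 at -1.20. All of these passed edgeR's test. LSM11, the partner of LSM10, did not (0.01, adjusted p = 0.989). None of the 25 differed 2-fold between the genotypes in either fraction, and the medians were -0.13 in heavy and 0.02 in light polysomes.

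Histone chaperones, which carry new histones to DNA, were called toward heavy polysomes in 10 of 16 genes and toward light in 2, with a median of 1.02. The shares over all genes tested were 30.0% toward heavy and 29.3% toward light polysomes. NASP stood at 1.94, CHAF1A at 1.97 and ASF1A, one of those toward light, at -1.02. Between the genotypes their medians were -0.11 in heavy and 0.11 in light polysomes. A list of 16 S phase genes was called toward heavy polysomes in 13 and toward light in 1, with a median of 1.66. Its genotype medians were -0.24 in heavy and 0.26 in light polysomes, and 1 of the 16, the helicase subunit MCM7 (-1.37 and -0.43), was 2-fold lower in heavy polysomes. Whether these S phase genes and the histone counts move together was not tested. The lists of factors, chaperones and S phase genes were not matched for coding length. Among genes that are not members, the median ratio was -1.21 at 300 to 450 coding bases and -0.01 at 1000 to 1500.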

How the data were processed

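The 4 polysome libraries of HCT116 cells came 1 per group. The deposited values are raw counts of reads for each symbol, whole in every cell. CASAVA, STAR, HTSeq and the build hg19 are named, per the submitters' processing notes; the sources used here give no version, annotation, strand setting or treatment of multi-mapped reads. Reads from antisense or overlapping genes may therefore be mixed.

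The members and gene lists were chosen with earlier results of these data known. Members with at least 50 counts in each library were compared between genotypes and are named with their values; other members are named where they entered the fit and otherwise given by sums, with full statistics for the highest mean level of each class and the extreme ratios. edgeR 4.0.16 (R 4.3.3) fitted 13574 genes with TMM scaling, filterByExpr (minimum count 10) and a quasi-likelihood test of heavy against light with the gradient as a block. The gradient is the genotype, so the block comes from the design and no replicate number was needed. DESeq2 1.42.0 was an alternative. Summed CPM use library totals; per-gene levels and log2 ratios use TMM-scaled CPM. Genotype ratios and single-gradient heavy to light ratios, of genes and of sums, are log2 ratios of scaled CPM with a prior count of 2. They have 95% counting intervals and no test. The fitted ratios do not use this prior count. The 73 symbols were matched to GENCODE 44 (GRCh38) through RefSeq's older symbols, for coding lengths (stop codon excluded), positions and sequences. Positions were not used with the hg19 counts. Coding lengths were found for 12535 tested genes.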

Additional observations from a re-analysis of the deposited data

Results flagged for a closer look

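HIST1H1E moved in opposite directions in the fractions: its log2 ratio (labelled knockout over wild type) was -0.87 for heavy and 0.30 for light polysomes, with 51 and 211 counts in the labelled knockout and 99 and 205 in the wild type. The sum of the 15 H4 rows did the same, at -0.97 in heavy and 0.39 in light polysomes. Without HIST1H4E the H4 sum was -0.89 (counting interval -1.86 to 0.08) and -0.23 (-0.80 to 0.34), so the opposite sign rests on that gene. Neither difference was tested, because each group has 1 library.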

How the results depend on the processing

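The lean of clustered histone mRNAs to light polysomes kept its direction in all settings tried: RLE scaling, library totals alone, no low-count filter, DESeq2, no gradient block and each gradient alone. The median log2 ratio of the tested members ran from -1.78 with library totals alone to -1.285 in the wild type gradient, with -1.68 in the labelled knockout gradient. Members called toward light polysomes, with the share of all genes so called, were 19 with RLE scaling (27.7%), 20 with library totals (37.0%), 16 of 51 tested without the filter (19.6%) and 14 with DESeq2 (23.0%). Without the filter HIST1H2AG, HIST1H2BN and HIST2H2BC lost their calls, and with DESeq2 HIST1H2BO and HIST2H2AB did too. Without the gradient as a replicate block 12 were called (16.1%), and 7 calls were lost as calls fell over all genes. Library totals moved the median of all genes to -0.30 and the share called toward heavy polysomes to 23.5%.

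Between the genotypes, the number of comparable members past 2-fold in light polysomes was 0 with RLE scaling. Without HIST1H1C, a setting added after the data were seen, it was 0 in heavy and 1 in light polysomes, since that gene was among those counted. Medians ran from -0.80 to -0.71 in heavy and from -0.57 to -0.43 in light polysomes. The shift ran from -0.44 to -0.14. No member had 200 counts in each library, so that limit gave no value. Depth limits most members: 41 had under 10 counts in each library.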

Other observations

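Clustered H2A and H2B genes often lie head to head and share a promoter region. By GENCODE positions, 13 H2A and H2B pairs had 5′ ends within 500 bases of each other on opposite strands, and both genes had a count in 10 of them. Summed over the libraries, the partners differed by more than 10-fold in 3 of these pairs and by up to 3.39-fold in the other 7. HIST1H2BK had 162 and 532 counts in heavy and light polysomes of the labelled knockout and 290 and 891 in those of the wild type. Its partner HIST1H2AH, 251 bases away, had 3 and 8 in the labelled knockout and 4 and 21 in the wild type. HIST3H2A had 596 counts over the 4 libraries and its partner HIST3H2BB 8. HIST2H2BE and HIST2H2AC had 204 and 161 counts over the 4 libraries, and HIST1H2BC and HIST1H2AC had 118 and 209.

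An annotated transcript that runs over 100 bases past the stem-loop was found for 11 members, which held 1136 counts over the 4 libraries. The 54 members with a stem-loop but no such transcript held 7355, among them HIST1H1C and HIST1H2BK. Only transcripts that hold the stem-loop were measured, so some of the 54 have longer annotated transcripts without it. HIST1H2BD has transcripts of 486 and 789 bases, and those of HIST1H2BC run from 460 to 2548 bases. GENCODE 44 is not the annotation the reads were counted on.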
